A study of Homo sapiens with 9 samples.

Results

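Postsynaptic calcium signalling was followed in spinal cord organoids (SCOs) through 9 genes: NRGN, PRKCB, PRKCA, DISC1, CAMK2A, CAMK2B, CAMK2D, CAMK2G and CAMK4. They were taken by name from the 31589 genes of the deposited tables, and all 9 were found. NRGN, PRKCB and DISC1 were listed because they are among the genes most raised by valproic acid (VPA), so their rise with VPA chose them and is given here as a description without a test. The other 6 were listed as their partners in the pathway.

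Whole SCOs grown from WTC, an established human induced pluripotent stem cell line, were sequenced in bulk after 96 h of treatment. The 9 libraries fall into 3 conditions of 3 libraries each, which are vehicle (the FGF medium alone), VPA, an inhibitor of histone deacetylases, and VPA + Rapamycin, in which an inhibitor of the kinase mTOR was given with VPA. The labels give the genotype of all libraries as WT, while the methods of the study describe clones C2, C36 and C40, all of which carry a SOX10 reporter cassette, and pools of several organoids for each library. The labels give same-numbered libraries of all conditions a shared prefix (C4, C5 or C6) but do not tie it to a clone, so the p-values measure only the spread between these libraries.

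Neurogranin, the product of NRGN, is a small neuronal protein that holds calmodulin near the membrane at low calcium. Protein kinase C (PKC), of which PRKCA and PRKCB encode the conventional alpha and beta isoforms, is activated by calcium and diacylglycerol and phosphorylates neurogranin, which then releases calmodulin. Calcium-loaded calmodulin in turn activates CaMKII, a holoenzyme built from the products of CAMK2A, CAMK2B, CAMK2D and CAMK2G, and CaMKIV, the nuclear kinase encoded by CAMK4. DISC1 is a scaffold protein of the centrosome, mitochondria and synapse that was named for a chromosomal translocation found in a family with mental illness.

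The 3 genes for which a sequence helps to read what follows are the calmodulin-binding substrate and both conventional PKC isoforms, whose transcripts responded with different strength. Their promoters (250 bases before to 50 after the transcription start, RefSeq, GRCh38.p14, each on the plus strand) lie at chr11:124739692-124739991 for NRGN, chr16:23835733-23836032 for PRKCB and chr17:66302363-66302662 for PRKCA. Capitals mark matches on either strand to the motifs searched.
NRGN: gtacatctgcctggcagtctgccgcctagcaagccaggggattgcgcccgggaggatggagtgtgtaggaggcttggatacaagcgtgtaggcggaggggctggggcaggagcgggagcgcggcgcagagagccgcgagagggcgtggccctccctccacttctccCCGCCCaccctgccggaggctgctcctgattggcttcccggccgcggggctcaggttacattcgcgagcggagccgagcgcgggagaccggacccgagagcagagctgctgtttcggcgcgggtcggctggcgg
PRKCB: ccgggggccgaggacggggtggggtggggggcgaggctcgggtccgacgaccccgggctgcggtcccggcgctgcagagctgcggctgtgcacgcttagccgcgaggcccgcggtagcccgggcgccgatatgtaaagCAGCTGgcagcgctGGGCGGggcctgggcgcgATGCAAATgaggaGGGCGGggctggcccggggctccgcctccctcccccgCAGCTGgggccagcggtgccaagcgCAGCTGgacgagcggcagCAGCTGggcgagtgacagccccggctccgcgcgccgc
PRKCA: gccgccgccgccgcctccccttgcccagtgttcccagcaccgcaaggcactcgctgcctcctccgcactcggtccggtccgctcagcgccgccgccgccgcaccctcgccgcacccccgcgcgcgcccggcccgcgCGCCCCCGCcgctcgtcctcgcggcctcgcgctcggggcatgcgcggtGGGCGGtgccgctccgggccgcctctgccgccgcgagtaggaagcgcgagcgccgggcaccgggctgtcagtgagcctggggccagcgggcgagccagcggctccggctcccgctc

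Of the 9 genes, 8 matched a RefSeq promoter, with 10 entries, and DISC1 did not. The motifs were AP-1 (TGANTCA), CRE (TGACGTCA), EGR (GCGNGGGCG), the GC box (GGGCGG), an E box (CAGCTG) and the octamer (ATGCAAAT), the last chosen after the sequences had been seen, and EGR and GC box matches can overlap. The PRKCB window held 4 E boxes, 2 GC boxes and 1 octamer, the NRGN window 1 GC box and the PRKCA window 1 EGR motif and 1 GC box. None of the 3 windows held the letters of AP-1 or CRE. Among the windows of the other members, which are not printed, a CAMK4 window held 1 AP-1 match. Windows of CAMK4, CAMK2B and CAMK2G held EGR matches. Over all 35116 RefSeq promoters of the same length, 17.9% held the E box, 45.0% the GC box, 1.77% the octamer, 9.43% the EGR motif, 7.71% AP-1 and 1.85% CRE. GC content was 70.3% for NRGN, 77.7% for PRKCB and 81.3% for PRKCA, against a median of 58.7% over all promoters. These matches describe letters only, and no factor was measured at these windows.

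Depth was similar among libraries, from 15290299 to 17417338 counted reads, so that 3 reads correspond to 0.172 to 0.196 CPM (counts scaled to a fixed library size). Levels are CPM scaled with TMM factors over the 9 libraries. Vehicle replicates 1 and 3 differed more than any other pair within a condition (chi-square of 35 per gene, against 4.52 to 16.2 for the other pairs). All 12 neuronal markers were present in every condition, with summed levels of 1824 to 3263 CPM in vehicle, 1685 to 1831 in VPA and 1798 to 2003 in VPA + Rapamycin. With VPA 0 of the 12 were higher and 6 lower, beside 16.4% and 15.7% of all genes. With Rapamycin against VPA 3 were higher and 0 lower, beside 3.01% and 3.73% of all genes. The 8 mesenchymal markers summed to 150.1 to 317 CPM in vehicle, 577 to 734 in VPA and 257 to 383 in VPA + Rapamycin. Of these 8, 2 were higher with VPA, near the 16.4% of all genes. When Rapamycin was added 6 were lower, beside 3.73% of all genes. The 7 neural progenitor markers summed to 2117 to 2462, 2642 to 2883 and 2311 to 2427 CPM, and the 7 neural crest markers to 396 to 481, 391 to 417 and 388 to 425 CPM. The 8 markers of astrocytes and oligodendrocytes, of which MOG was not in all tables, summed to 85.7 to 132, 73.3 to 90.3 and 92.5 to 187 CPM. Of 8 blood and microglial markers 3 were not in all tables, the leukocyte marker PTPRC among them, and the rest summed to 6.26 to 10.7, 15.5 to 22.5 and 11.2 to 12.5 CPM. Of the blood and microglial markers 1 could be tested, and it was higher with VPA and lower when Rapamycin was added. By their means, the mesenchymal, neural progenitor (2335, 2736 and 2351 CPM) and blood and microglial sums moved in the same order as NRGN, PRKCB and DISC1. In the neural progenitor sum, HES5 was at 314 to 318 CPM in vehicle and 555 to 697 with VPA. It was at 377 to 445 CPM with VPA + Rapamycin. SOX1 also lay above vehicle with VPA (88.6 to 108 and 115 to 127 CPM). SOX2, PAX6, NES, FABP7 and MKI67 overlapped between vehicle and VPA. Of these 7 markers 1 was called higher with VPA and 0 lower (median log2 fold change 0.02), near the shares over all genes. The mesenchymal sum with VPA came mostly from COL1A1 (236 to 317 CPM) and COL1A2 (295 to 365 CPM). The blood and microglial sum with VPA was nearly all CD74 (15.1 to 21.9 CPM). CD79A went the other way, from 0.198 to 0.805 CPM in vehicle to 0.0568 to 0.179 with VPA. The part of these cell types in the results was not tested. In bulk RNA, more cells of a type and more RNA per cell cannot be told apart.

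NRGN (ENSG00000154146, chr11:124739846-124747210, plus strand, GRCh38) was measured at 10, 10.3 and 12.6 CPM in the vehicle libraries. It reached 85.4, 85.5 and 76.1 CPM with VPA and 65.9, 58.5 and 59.3 CPM with VPA + Rapamycin. The 3 conditions did not overlap, with vehicle low, VPA high and VPA + Rapamycin between them but nearer to VPA. The mean was 11.0 ± 1.39 CPM in vehicle (SD, n = 3) and 82.3 ± 5.39 with VPA, 7.5-fold higher, a log2 fold change of 2.9 with a standard error (SE) of 0.14. Adding Rapamycin brought the mean to 61.2 ± 4.05 CPM, 74.4% of the VPA level (log2 fold change -0.42, SE 0.08, edgeR adjusted p = 0.00402). NRGN nevertheless stayed 5.58-fold above vehicle (log2 fold change 2.47, SE 0.14, adjusted p = 3.27e-05).

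PRKCB (ENSG00000166501, chr16:23835946-24220611, plus strand), the PKC beta gene, had a nearly identical profile. Its levels were 10.7, 9.88 and 13.2 CPM in vehicle, 69.7, 70.3 and 71.9 with VPA and 49.4, 47.8 and 53.9 with VPA + Rapamycin. Again no library of a condition overlapped with those of another. The mean rose from 11.3 ± 1.76 to 70.6 ± 1.15 CPM (SD, n = 3), 6.27-fold (log2 fold change 2.64, SE 0.14). With Rapamycin it was 50.4 ± 3.19 CPM, 71.3% of the VPA level (log2 fold change -0.49, SE 0.08, adjusted p = 0.00138) and 4.47-fold above vehicle (2.15, SE 0.15, adjusted p = 4.49e-05).

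DISC1 (ENSG00000162946, chr1:231626815-232041272, plus strand) rose with VPA to a similar extent and lost most of the rise with Rapamycin. It was measured at 7.99, 9.29 and 7.49 CPM in vehicle, 47.3, 45.4 and 56.4 with VPA and 19.1, 18.2 and 13.7 with VPA + Rapamycin. The conditions did not overlap, and the Rapamycin libraries sat nearer to vehicle than to VPA. The means were 8.25 ± 0.927, 49.7 ± 5.9 and 17 ± 2.86 CPM (SD, n = 3), a 6.02-fold difference between VPA and vehicle (log2 fold change 2.58, SE 0.15). With Rapamycin it was at 34.2% of the VPA level (log2 fold change -1.54, SE 0.13, adjusted p = 4.2e-07), which was 2.06-fold above vehicle (1.03, SE 0.18, adjusted p = 0.00415). By p in VPA against vehicle, NRGN, PRKCB and DISC1 ranked 3, 6 and 9 of 17360 tested genes, which restates how they were chosen and is no further evidence. The tests of these 3 genes with Rapamycin use the VPA libraries, and those against vehicle the vehicle libraries, of the comparison that chose them.

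PRKCA (ENSG00000154229, chr17:66302636-66810743, plus strand), the PKC alpha gene, was already well expressed without VPA. Its levels were 48.9, 54.8 and 43.8 CPM in vehicle, 72.5, 78.1 and 72.8 with VPA and 55.5, 57.7 and 65.5 with VPA + Rapamycin. The VPA libraries were above all others, and the Rapamycin libraries were just above vehicle. PRKCA rose 1.52-fold with VPA (49.1 ± 5.52 to 74.5 ± 3.16 CPM, SD, n = 3, log2 fold change 0.59, SE 0.12, adjusted p = 0.00321). It was the 1 gene of the 6 not chosen on this comparison to pass, against a background of 16.4% of all genes called higher with VPA. With Rapamycin it was 59.6 ± 5.28 CPM, 80.0% of the VPA level (-0.32, SE 0.08, adjusted p = 0.027), and did not differ from vehicle past the threshold (0.27, 95% interval -0.01 to 0.54, adjusted p = 0.156). The fall with Rapamycin lost its call in 6 of 11 alternatives, with adjusted p up to 0.207, among them leaving out VPA replicate 1, 2 or 3 or VPA + Rapamycin replicate 1 or 2 (0.0572 to 0.147).

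CAMK4 (ENSG00000152495, chr5:111223653-111494886, plus strand), the CaMKIV gene, was measured at 18.5, 26.4 and 24.3 CPM in vehicle, 26.9, 33.7 and 34.1 with VPA and 26.9, 22.8 and 23.9 with VPA + Rapamycin. The VPA libraries lay just above the vehicle libraries, and the Rapamycin libraries overlapped with vehicle. The mean was 23.1 ± 4.12 CPM in vehicle and 31.6 ± 4.02 with VPA (SD, n = 3), a log2 fold change of 0.44 (SE 0.16) that missed the threshold at an adjusted p of 0.0565. It passed in 5 of 11 alternatives, with adjusted p from 0.0233 without vehicle replicate 3 to 0.185 (0.0453 under the replicate block). With Rapamycin the mean was 24.6 ± 2.1 CPM, at a log2 fold change of -0.36 against VPA (SE 0.11, adjusted p = 0.067, passing in 3 of 11 alternatives, 0.0376 without VPA replicate 1 and 0.0488 without VPA + Rapamycin replicate 1). Thus PRKCA and CAMK4 were the 2 of these 6 genes whose VPA libraries all lay above vehicle, against 24.9% of all genes.

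Of the 4 CaMKII subunit genes 0 passed in any comparison by edgeR (0 at an unadjusted p under 0.05 and 0 by DESeq2), with 16.4% of all genes called higher and 15.7% lower with VPA. For so few genes a count of 0 is near that background. CAMK2D (ENSG00000145349, chr4:113451032-113761927, minus strand), the delta subunit gene, was at 66.3, 70.2 and 87.4 CPM in vehicle, 78.8, 70.5 and 66.8 with VPA and 67.1, 60.8 and 74.4 with VPA + Rapamycin. CAMK2G (ENSG00000148660, chr10:73812501-73874591, minus strand), the gamma subunit gene, was at 55.7, 50.4 and 43.3, then 46.1, 43.8 and 54.2, then 48.1, 47.7 and 49.3 CPM. The conditions overlapped for both. With VPA the log2 fold change was -0.06 for CAMK2D (95% interval -0.35 to 0.22, adjusted p = 0.746) and -0.06 for CAMK2G (-0.35 to 0.23, adjusted p = 0.753). With Rapamycin against VPA it was -0.09 (-0.28 to 0.1, adjusted p = 0.605) and 0.01 (-0.18 to 0.21, adjusted p = 0.958). The intervals for VPA leave out a rise of the size fitted for PRKCA.

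CAMK2A (ENSG00000070808, chr5:150219491-150290291, minus strand) and CAMK2B (ENSG00000058404, chr7:44217150-44334577, minus strand), the alpha and beta subunit genes that prevail in the mature forebrain, were low in every library. CAMK2A was at 3.2, 2.3 and 2.54 CPM in vehicle, 3.29, 2.1 and 2.78 with VPA and 1.9, 3.49 and 2.46 with VPA + Rapamycin. CAMK2B was at 2.07, 2.04 and 3.09, then 2.99, 2.22 and 3.52, then 2.85, 4.31 and 3.4 CPM. All conditions overlapped for both genes. At this depth the intervals were wide, with log2 fold changes for VPA of 0.01 (-0.66 to 0.69, adjusted p = 0.982) for CAMK2A and 0.27 (-0.44 to 0.97, adjusted p = 0.565) for CAMK2B. For CAMK2B in VPA + Rapamycin against vehicle the value was 0.54 (-0.13 to 1.21, adjusted p = 0.242).

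**Figure D1:**
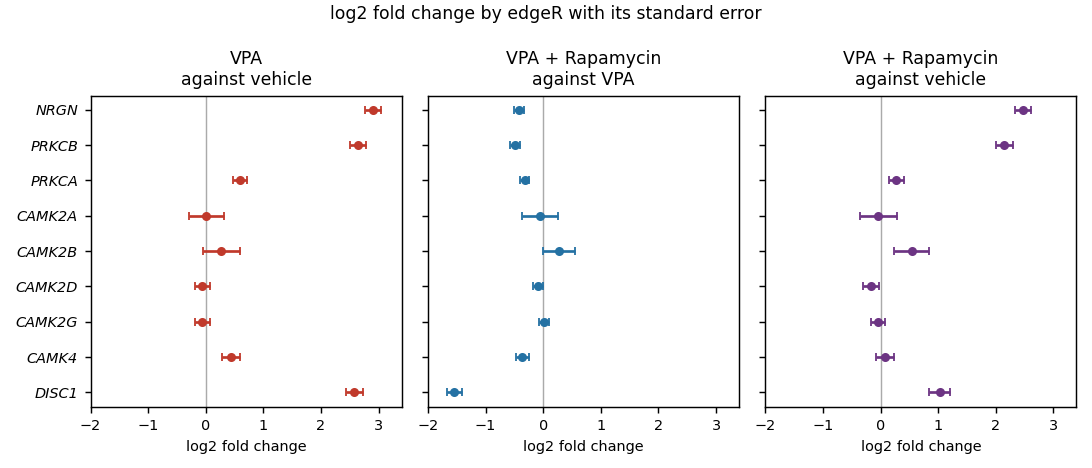
log2 fold change of the 9 genes by edgeR (points) with the standard error (bars) in the 3 comparisons between conditions. NRGN, PRKCB and DISC1 stand far to the right with VPA, and with Rapamycin against VPA DISC1 is at -1.54 while NRGN and PRKCB are at -0.42 and -0.49.

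Across the 9 genes, 4 were lower in VPA + Rapamycin than in VPA (DISC1, PRKCB, NRGN and PRKCA) and 0 higher, against a background of 3.73% of all genes called lower. The libraries did not overlap for these 4 and for CAMK4, 5 in all, against 13.2% of genes. Since 3 of the 4 were listed for high values in the same VPA libraries, these counts are not independent of the choice. A single fit of all 9 libraries, in which the conditions share their spread, ended the calls of PRKCB (adjusted p = 0.0735), NRGN (0.103) and PRKCA (0.207) and left DISC1 alone. In VPA + Rapamycin against vehicle 3 were higher and 0 lower, with 9.81% of all genes called higher, and 4 did not overlap with vehicle, with 20.3% of all genes. The 3 are NRGN, PRKCB and DISC1, which were listed for lying above the same vehicle libraries, so nothing is read from this count. Of the other 6 genes 0 passed by edgeR (0 at an unadjusted p under 0.05 and 0 by DESeq2). The median log2 fold change over the genes tested was 0.14 with VPA (the 6 genes), -0.32 with Rapamycin against VPA and 0.27 with VPA + Rapamycin against vehicle (all 9), with medians over all genes of -0.003, 0.004 and -0.001.

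Levels were compared between genes per kb of the gene length in the tables. In vehicle CAMK2D was highest at 10.1 ± 1.52 CPM per kb, followed by NRGN (8.38 ± 1.06), CAMK2G (7.35 ± 0.918), PRKCA (4.41 ± 0.495), CAMK4 (1.66 ± 0.296), PRKCB (1.02 ± 0.159), DISC1 (0.64 ± 0.0718), CAMK2A (0.436 ± 0.0751) and CAMK2B (0.294 ± 0.0735). The ranges of CAMK2D and NRGN overlapped, as did those of NRGN and CAMK2G and of CAMK2A and CAMK2B. With VPA NRGN led at 62.9 ± 4.11 CPM per kb, far above CAMK2D at 9.78 ± 0.834. PRKCB, at 6.37 ± 0.104, came next to PRKCA at 6.68 ± 0.283, and their ranges (6.29 to 6.49 and 6.5 to 7.0) almost met, while CAMK2G (7.08 ± 0.807) overlapped with PRKCA. DISC1 rose to 3.85 ± 0.457 and passed CAMK4 at 2.27 ± 0.289. With VPA + Rapamycin NRGN still led at 46.8 ± 3.1 CPM per kb, and DISC1, at 1.32 ± 0.222, was again below CAMK4 at 1.77 ± 0.151.

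The balance of both conventional PKC isoforms shifted accordingly. The ratio of PRKCB to PRKCA per kb was 0.219, 0.181 and 0.304 in vehicle, 0.968, 0.905 and 0.993 with VPA and 0.895, 0.833 and 0.828 with VPA + Rapamycin. PRKCB was thus the minor isoform in vehicle and nearly level with PRKCA in both VPA conditions. Between VPA + Rapamycin and VPA the log2 ratio differed by -0.16, without overlap (two-sided exact permutation p = 0.1, the smallest that 3 libraries against 3 allow). PRKCB was listed for its rise in the same VPA libraries, so the ratio is a description and nothing is read from this p.

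DISC1 was followed relative to NRGN and PRKCB in the same way. The ratio of DISC1 to PRKCB per kb was 0.644, 0.807 and 0.486 in vehicle, 0.582, 0.555 and 0.674 with VPA and 0.332, 0.326 and 0.219 with VPA + Rapamycin. Vehicle and VPA overlapped, whereas every Rapamycin library was below all others. Against VPA the difference was -1.07 on the log2 scale, and for DISC1 to NRGN, which went from 0.0618 ± 0.0117 to 0.0281 ± 0.00414 (SD, n = 3), it was -1.13, without overlap in either case (exact permutation p = 0.1 for each). The ratio of PRKCB to NRGN was 0.121 ± 0.00713 in vehicle, 0.102 ± 0.00859 with VPA and 0.0974 ± 0.00952 with VPA + Rapamycin, and the last 2 conditions overlapped (exact permutation p = 0.6). These p-values are unadjusted, and 4 ratios were examined. NRGN, PRKCB and DISC1 were all listed for high values in the same VPA libraries, so nothing is read from these p-values.

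The make-up of CaMKII was taken as the share of each subunit in the 4 CAMK2 transcripts per kb. CAMK2D made up 55.5 ± 6.24% in vehicle, 55.4 ± 4.22% with VPA and 53.3 ± 2.66% with VPA + Rapamycin (SD, n = 3). CAMK2G made up 40.5 ± 6.25%, 40.1 ± 3.96% and 41.6 ± 1.53%. The SCOs therefore carried mostly delta and gamma transcript in every condition, with CAMK2A at 2.39 ± 0.426%, 2.49 ± 0.428% and 2.5 ± 0.856% and CAMK2B at 1.61 ± 0.332%, 2.01 ± 0.385% and 2.53 ± 0.609%. In 12 exact permutation tests the unadjusted p ranged from 0.1 (CAMK2B, VPA + Rapamycin against vehicle, a difference of 0.921 percentage points) to 1.0, and every adjusted p was 1.0. The summed level was 18.2 ± 0.754, 17.7 ± 0.911 and 17.2 ± 0.929 CPM per kb.

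The wider pathway was read from a list of 109 further genes in 10 role groups, of which 108 could be tested. With VPA 33 were higher and 21 lower, with backgrounds of 16.4% and 15.7% of all genes, and the median log2 fold change was 0.01. The number of lower genes went to 13 without VPA replicate 1 and 12 without VPA replicate 2. Of the 33 higher genes 4 (ATP2B3, PRKCH, S100B and ZNF365) reached 10 reads at the median depth in all libraries of the VPA condition only. The list as a whole thus moved in both directions.

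In the PKC family 6 of the 7 other genes rose with VPA and 0 fell (median 0.91), with 16.4% of all genes called higher and 15.7% lower. PRKCQ, the calcium-independent isoform theta, went from 3.81 ± 0.953 to 13.6 ± 1.5 CPM (log2 fold change 1.82, SE 0.23, adjusted p = 0.000219). PRKCH, the calcium-independent isoform eta, was low and went from 0.585 ± 0.204 to 2.62 ± 0.359 CPM (6, 10 and 12 reads against 46, 47 and 39), and PRKCZ, the atypical isoform zeta, from 8.55 ± 1.87 to 16.8 ± 1.43 CPM (0.96, SE 0.19, adjusted p = 0.00304). PRKCI, the atypical isoform iota, did not pass (64.7 ± 12.9 and 72.0 ± 6.52 CPM, adjusted p = 0.486). PRKCH reached the minimum of 10 reads at the median depth in all 3 libraries only where it was high, which the filter favours, and without it 5 of 6 were higher. With Rapamycin against VPA 0 of the 7 passed by edgeR in either direction (median -0.17) or by DESeq2. Over all genes 3.01% were called higher and 3.73% lower there, so for so few genes a count of 0 is near that background. Of the 7, 3 had an unadjusted p under 0.05 (PRKCD, PRKCQ and PRKCZ, all lower, with adjusted p from 0.0576). Against vehicle 3 of the 7 (PRKCQ, PRKCE and PRKCH) were called higher with VPA + Rapamycin, with 9.81% of all genes called higher. The log2 fold change was 1.38 for PRKCQ and 0.79 for PRKCE. PRKCH (47, 36 and 33 reads against 6, 10 and 12) again reached the minimum in all libraries only where it was high. Without it 2 of 6 were higher. The call of PRKCE was lost in 4 of 11 alternatives (adjusted p up to 0.105) and that of PRKCH in 1 (0.055).

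Among calmodulins and calmodulin-binding PKC substrates, which share the role of NRGN, 1 of 8 rose with VPA and 2 fell. These counts are near the 16.4% and 15.7% of all genes called. CALM3, a calmodulin gene, went from 421 ± 63.6 to 592 ± 24.3 CPM (0.48, SE 0.11, adjusted p = 0.00829). PCP4, a calmodulin-binding protein with an IQ motif like that of neurogranin, fell from 14.8 ± 4.12 to 3.66 ± 0.779 CPM (-2.02, SE 0.26, adjusted p = 0.00027). MARCKS, a major PKC substrate at the membrane, fell from 1237 ± 215 to 826 ± 32.2 CPM (-0.59, SE 0.12, adjusted p = 0.00412). GAP43, the growth cone relative of neurogranin, was at 36.6 ± 15.5 and 33.7 ± 2.94 CPM and did not pass with VPA (adjusted p = 0.701), but was lower with Rapamycin than with VPA (22.2 CPM, -0.6, SE 0.11, adjusted p = 0.00219, and 0.245 in 1 of 11 alternatives).

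The inhibitors of CaMKII went opposite ways. CAMK2N1 fell with VPA from 142 ± 28.4 to 74.3 ± 6.97 CPM (-0.94, SE 0.15, adjusted p = 0.000795), and CAMK2N2 rose from 5.9 ± 0.412 to 15.3 ± 1.03 CPM (1.37, SE 0.17, adjusted p = 0.000229). CAMK1G, the CaMKI gamma gene, rose from 5.58 ± 1.65 to 12.1 ± 1.6 CPM (1.1, SE 0.24, adjusted p = 0.00507). In all 3 of 11 genes of this group were higher and 2 lower, with 16.4% and 15.7% of all genes.

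Calcineurin, the calmodulin-dependent phosphatase, and its regulators had 3 of 7 genes higher and 1 lower with VPA. Over all genes 16.4% were called higher and 15.7% lower. RCAN1 and RCAN3, which encode regulators that bind calcineurin, had log2 fold changes of 1.33 and 1.35 (SE 0.16 and 0.19, adjusted p = 0.000212 and 0.000462), and PPP3CA, a catalytic subunit, of 0.76 (SE 0.16, adjusted p = 0.0051). Among the transcription factors of the list 3 of 13 were higher and 2 lower, near those shares. NFATC1, a calcineurin target, rose from 6.85 to 24.1 CPM (1.8, SE 0.19, adjusted p = 8.28e-05) and MEF2C from 5.16 to 15.2 CPM (1.55, SE 0.23, adjusted p = 0.000578), while CRTC1, a CREB coactivator, fell from 49.9 to 29.4 CPM (-0.77, SE 0.14, adjusted p = 0.00171).

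Upstream of PKC, 4 of 9 phospholipase C genes were higher and 2 lower with VPA. For this and the next 2 groups the shares over all genes were 16.4% higher and 15.7% lower. PLCG2 went from 4.34 to 13.9 CPM (1.66, SE 0.23, adjusted p = 0.000465) and PLCB3 from 37.1 to 69.9 CPM (0.9, SE 0.15, adjusted p = 0.0012), whereas PLCG1 fell from 337 to 227 CPM (-0.58, SE 0.11, adjusted p = 0.00291). Of 16 tested genes for calcium release, entry and pumps, 8 were higher and 3 lower, but 4 of the higher and 2 of the lower calls were lost in at least 1 alternative (ITPR2 in 8 of 11, ATP2B4 in 6, and ATP2B1, ATP2B3, ATP2A2 and ORAI3 in 4 each). ITPR1, an inositol trisphosphate receptor of the endoplasmic reticulum, went from 2.91 to 11.6 CPM (1.98, SE 0.27, adjusted p = 0.000423), and STIM1, the sensor of its calcium store, from 27.5 to 47.6 CPM (0.78, SE 0.12, adjusted p = 0.00081). ATP2A3, a calcium pump of the same store, went from 17.6 to 34.3 CPM (0.95, SE 0.14, adjusted p = 0.0005). Of 9 calcium buffers and sensors 2 were higher and 0 lower, VSNL1 (1.47, SE 0.33, adjusted p = 0.0067) and S100B. The call of S100B was lost in 5 of 11 alternatives, at 1, 5 and 22 reads in vehicle and 38, 29 and 49 with VPA. S100B reached 10 reads at the median depth in all libraries of the VPA condition only, so neither a fold nor a p is given.

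Among 13 binding partners of DISC1, 6 were lower and 2 higher with VPA and 5 did not pass (median -0.19). Over all genes 15.7% were called lower and 16.4% higher. Of the 6 lower calls 3 held in all 11 alternatives, and those of DIXDC1, CCDC88A and GSK3B were lost in 5, 4 and 3. PDE4B, a cyclic AMP phosphodiesterase, fell from 93.2 ± 2.2 to 47.8 ± 5.57 CPM (-0.97, SE 0.12, adjusted p = 0.000176), and PAFAH1B1, which encodes the dynein regulator LIS1, from 412 ± 40.6 to 266 ± 9.84 CPM (-0.64, SE 0.1, adjusted p = 0.00097). TNIK, a synaptic kinase, rose from 39 ± 7.11 to 72.1 ± 0.662 CPM (0.88, SE 0.14, adjusted p = 0.000894). Of the postsynaptic scaffolds 1 of 15 was higher and 3 were lower, beside the same shares over all genes. DLGAP3 rose from 5.32 to 17 CPM (1.67, SE 0.17, adjusted p = 6.86e-05), and DLG4, which encodes PSD-95, fell from 116 to 60.2 CPM (-0.95, SE 0.14, adjusted p = 0.000553), as did DLG3 (-0.49, SE 0.12, adjusted p = 0.0094, lost in 1 of 11 alternatives).

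With Rapamycin against VPA 3 of the 108 genes were higher and 8 lower, with backgrounds of 3.01% and 3.73% (median -0.03). Higher were CAMK2N1 (0.34), DIXDC1 (0.3) and MARCKS (0.24), and lower were NFATC2 (-0.83), HOMER2 (-0.81), PLCG2 (-0.65), GAP43 (-0.6), PLCD3 (-0.46), ATP2A3 (-0.39), CALM3 (-0.25) and S100B. S100B (16, 13 and 6 reads against 38, 29 and 49) again reached 10 reads in all libraries of the VPA condition only. No fold is given for it, and without it 7 were lower. HOMER2, a scaffold that ties glutamate receptors to calcium stores, went from 34.7 to 19.8 CPM (SE 0.11, adjusted p = 0.000219) and passed in all 11 alternatives, while each of the other 10 lost its call in at least 1. The number lower went to 3, 4 and 4 without VPA replicate 1, 2 and 3, to 2 without VPA + Rapamycin replicate 3 and to 1 in the fit of all 9 libraries. The number higher went to 0 without VPA replicate 3 and to 1 without VPA replicate 1 or 2 or VPA + Rapamycin replicate 1 or 3. Against vehicle 22 were higher with VPA + Rapamycin and 13 lower, with backgrounds of 9.81% and 9.22% (median -0.04). Of the 22 higher genes 2 (PRKCH and ZNF365) reached 10 reads in all libraries of the VPA + Rapamycin condition only. The higher count went to 14 without vehicle replicate 2 and 12 without VPA + Rapamycin replicate 1. The lower count went to 21 without vehicle replicate 1, 8 without vehicle replicate 2, and 5, 7 and 6 without VPA + Rapamycin replicate 1, 2 and 3. RCAN1 (1.21), NFATC1 (1.47), CAMK2N2 (1.22) and DLGAP3 (1.48) were among the genes higher than vehicle in all 11 alternatives, and PDE4B (-0.77), PAFAH1B1 (-0.61), DLG4 (-0.85) and HOMER2 (-0.92) among those lower.

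The genes within 100 kb of NRGN, PRKCB and DISC1 were examined in the same fits. Beside NRGN, SIAE and SPA17 rose with VPA (15 ± 3.37 to 26.7 ± 3.12 CPM, 0.83, SE 0.18, adjusted p = 0.00524, and 16.9 ± 2.95 to 28.5 ± 4.03 CPM, 0.74, SE 0.17, adjusted p = 0.00698). ESAM, which encodes an endothelial adhesion molecule and lies 5.4 kb from NRGN on the other strand, had 0, 1 and 2 reads in vehicle, 34, 20 and 20 with VPA and 11, 24 and 24 with VPA + Rapamycin. ESAM passed the filter on low counts only through the conditions where it was high, so neither a fold nor a p is given. VSIG2, at 0.3 kb from NRGN, had 1, 0 and 0 reads in vehicle and 10, 19 and 21 with VPA and did not pass the filter on low counts for edgeR there. The intronic transcript AP000866.6 fell (-1.59, SE 0.28, adjusted p = 0.00168), and MSANTD2 missed the threshold (-0.38, SE 0.14, adjusted p = 0.0571), as did AP000866.1 (0.09, adjusted p = 0.822) and AP000866.4 (-0.12, adjusted p = 0.874). With VPA 4 of the 7 tested neighbours of NRGN passed by edgeR, ESAM among them, beside 16.4% of all genes called higher and 15.7% lower. With Rapamycin against VPA 0 of the 8 tested neighbours of NRGN passed by edgeR or DESeq2, and 1, AP000866.6, had an unadjusted p under 0.05 (adjusted p = 0.155). Over all genes 3.01% were called higher and 3.73% lower there, so for so few genes a count of 0 is near that background. Beside DISC1, TSNAX did not pass (47.9 ± 6.41 and 47.3 ± 4.11 CPM, -0.03, SE 0.13, adjusted p = 0.89), and AL445524.1 did not pass (-0.98, SE 0.48, adjusted p = 0.144). Beside PRKCB no neighbour passed the filter. Genes that overlap a member in the annotation had at most 1.53% of its mean count (CAMK2G).

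The profiles most like those of the chosen genes over the 9 libraries were found by Pearson's r of log2 CPM among 18008 genes. For NRGN they were PRKCB (r = 0.996), GABRB2, a GABA-A receptor subunit gene (0.995), and GPX3, an extracellular glutathione peroxidase gene (0.994). For PRKCB they were GPX3 and NRGN (0.996 each) and DOCK9, a Cdc42 exchange factor gene (0.995). For DISC1 they were C1orf198 (0.984), FABP5, a fatty acid-binding protein gene (0.983), and HTATIP2 (0.982), and its r was 0.859 with NRGN and 0.87 with PRKCB. GABRB2 was at 1.08, 10.3 and 6.32 CPM in vehicle, VPA and VPA + Rapamycin, and HTATIP2 at 1.39, 5.18 and 2.25 CPM. The 9 points fall into 3 conditions, so that r here describes mostly the order of the condition means. For the CAMK2 genes r with NRGN lay between -0.247 (CAMK2G) and 0.516 (CAMK2B).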

How the data were processed

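Poly-A RNA of 9 SCO libraries (3 conditions of 3) was sequenced. Per the labels and the submitters' processing notes, reads were aligned with HISAT2 2.0.5 and counted per gene with featureCounts 1.5.0-p3; the genome build and the use of strand are not given in the sources used here. The deposited counts are unnormalized reads per gene, in 1 table for each pair of conditions, without genes under 2 reads over its 6 libraries. Gene coordinates equal those of GENCODE 29 (GRCh38) for 31522 of 31589 genes and for all 9 members. A further 36 per-sample columns (normalized values and FPKM) and the authors' fold changes and p-values were not used.

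For each pair of conditions, edgeR 4.0.16 (R 4.3.3, limma 3.58.1) was run on that pair's own table, using TMM normalization, the default filterByExpr and quasi-likelihood F tests. Benjamini-Hochberg adjustment covered all tested genes, and the threshold was 0.05. SEs come from the estimate and its F statistic, and intervals are 95%. Log2 CPM used a prior count of 1. Ratios and shares were compared by exact two-sided permutation tests, whose smallest p is 0.1. Floors of 3 reads cover counting error only. Alternatives were DESeq2 1.42.0, upper-quartile normalization, no filter, a joint fit of the 9 libraries, a replicate block, and leaving out each library in turn, and raw counts for shares.

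Members and lists were chosen with earlier results of these data known. Named genes are the 9 members, up to 3 called genes with the smallest adjusted p per role group and comparison, tested neighbours within 100 kb and the 3 most alike profiles. VSIG2 in VPA against vehicle, the genes named for lost calls or for the filter, PRKCI with VPA, PRKCD, PRKCQ and PRKCZ with Rapamycin and GAP43 with VPA were named after their values were seen. The same holds for the markers COL1A1, COL1A2, CD74 and CD79A and the neural progenitor markers named singly. On simulated data for VPA against vehicle (17360 genes, 5 simulations, 200 genes changed in each), edgeR recovered 68.4% of 2-fold and 92.1% of 4-fold changes, and 8.09% of its calls were false. No 2 libraries agreed within sampling noise, and none was counted as a duplicate. Values of some listed genes are not reported here.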

Additional observations from a re-analysis of the deposited data

How the results depend on the processing

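Every change of NRGN, PRKCB and DISC1 kept its direction under all alternatives, as did PRKCA and CAMK2B. The calls of PRKCA with VPA and of NRGN, PRKCB and DISC1 in VPA + Rapamycin against vehicle held in all 11. Among the 6 genes not chosen on VPA, 2 instead of 1 were higher with VPA under upper-quartile normalization, no filter, a single fit of all 9 libraries and the replicate block, the addition being CAMK4 (adjusted p = 0.0453 with the block). In VPA + Rapamycin against VPA, 1 instead of 4 of the 9 genes was lower in the single fit of all libraries; the cause was not tested. For the calcium list in that comparison, 5 genes were higher without a filter and 0 in the single fit, where 1 was lower, and against vehicle 21 were lower in the single fit. The CAMK2G share with VPA + Rapamycin was 39.7% from raw counts, which leave gene length out.

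Leaving out each library in turn, the members higher with VPA ranged from 1 to 2 and those lower with Rapamycin from 3 to 4. The list ranged from 27 to 36 higher and 12 to 24 lower with VPA, 0 to 4 and 2 to 7 with Rapamycin against VPA, and 12 to 28 and 5 to 21 against vehicle. Uncalled log2 fold changes turned sign in this series for CAMK2A (VPA -0.14 to 0.17, Rapamycin against VPA -0.32 to 0.13, against vehicle -0.3 to 0.15), CAMK2D (VPA -0.14 to 0.07), CAMK2G (-0.16 to 0.03, -0.05 to 0.11 and -0.14 to 0.03) and CAMK4 (against vehicle -0.06 to 0.19).

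Whether the replicate numbers pair the samples is not known: same-numbered libraries share a prefix whose meaning the labels do not give, and their deviations correlated at -0.0574 to 0.143 over 18008 genes, not every pair above 0.1, so they were treated as unpaired. The block changed no other call among the 9 genes. Depth limits CAMK2A and CAMK2B most.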
